A study of Mus musculus with 4 samples.

Results

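The genes of the epidermal growth factor (EGF) receptor family and of its main ligands were examined in the open chromatin of mouse salivary gland organoids. The group was a list of 10 genes, named by family with earlier results of these data known but with no measured value in the rule, out of 21436 protein-coding genes that could be placed with a strand. It held 4 receptors, Egfr, Erbb2, Erbb3 and Erbb4, and 6 ligands, Egf, Areg, Ereg, Hbegf, Tgfa and Nrg1. Open chromatin had been measured by bulk ATAC-seq, in which the Tn5 transposase cuts DNA wherever it is not covered by nucleosomes or other proteins. The 4 samples were organoids grown from the submandibular salivary gland of non-irradiated C57BL/6 mice, 2 at passage 1 (P1) and 2 at passage 2 (P2). For ATAC-seq the paper names the younger of its 2 culture times, whose organoids it describes as less mature than the older ones. According to the paper only female mice were used, since the submandibular gland of males holds granular convoluted tubules that humans lack. Ages in the labels are 12 weeks for 1 of the mice at each passage and 3 months for the other. All 4 were grown in Matrigel in a medium that contained EGF itself, together with FGF2, insulin, dexamethasone, Y27632, R-spondin1 and Wnt3a, so no sample without added EGF was available for comparison.

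Signaling in this family starts when a ligand binds the outer part of a receptor and 2 receptors pair, which switches on the kinase inside the cell and, through adaptors, the RAS/MAPK and PI3K routes. Most ligands are made as membrane-bound precursors that are released by proteases, and they differ in the receptors they bind. EGF, amphiregulin and TGFα bind EGFR, epiregulin and HB-EGF also bind ERBB4, and neuregulin 1 binds ERBB3 and ERBB4, whereas ERBB2 has no known ligand and acts as a partner of the others. In the salivary gland the family is known for its part in branching of the developing gland, and the ducts of the adult mouse submandibular gland are a classical source of EGF.

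The authors deposited 1 list of open regions for the series, and which samples entered it is not stated. It was taken to be their consensus over all organoid samples, although its number of regions is not the one they give for that consensus. It held 69545 lines and 32011 distinct regions, of which 8174 were centred at most 1 kb from a protein-coding 5′ end and 23837 lay elsewhere. Each region carried an IDR score, which rises with the reproducibility of a peak between replicates to a ceiling of 1000, the fold of its signal relative to local background, and a q-value on the −log10 scale. No sample had a value of its own, so the depth and the spread between replicates are unknown, P1 and P2 could not be compared, and all counts below are descriptions with no test. In bulk samples, chromatin open in a few cells and chromatin weakly open in all of them cannot be told apart, and an open region does not show that a gene was transcribed. As a check of the labelled tissue, an open region at the 5′ end was found in 11 of 14 duct, epithelial and stem/progenitor marker genes, beside 38.3% of all protein-coding genes. These were all 5 stem/progenitor and both epithelial markers, 2 of 3 basal duct markers (Krt5 and Krt14, not Trp63) and 2 of 4 luminal duct markers (Krt8 and Cldn4, not Krt7 and Krt18). None of 19 acinar, myoepithelial, immune, endothelial, fibroblast and nerve marker genes did, although 2 of these 19 held a region inside the gene (39.5% of all) and 12 were the nearest gene to a distal region (40.4% of all). Positions are given on mouse build GRCm38, which was inferred from gene starts, since the submitters' notes name GRCm39.

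An open region lay within 1 kb of the 5′ end in 4 of the 10 genes, beside the 38.3% (8203 of 21436) of all protein-coding genes. These were the receptors Egfr, Erbb2 and Erbb3, and Hbegf was the only ligand among them. Thus 3 of 4 receptors and 1 of 6 ligands had an open 5′ end. Erbb4, Egf, Areg, Ereg, Tgfa and Nrg1 had no region there. A region lay inside the gene in 8 of the 10 (39.5% of all protein-coding genes), and all 10 were the nearest gene to at least 1 distal region, that is, a region over 1 kb from every protein-coding 5′ end (40.4% of all protein-coding genes). The genes differ greatly in length and in the distance to their neighbours, which bears on the last 2 counts. For the count inside the gene, each is therefore set beside genes of like length below. Distal counts were compared with those of genes with a like stretch of sequence nearest to their 5′ end. The share of these with fewer distal regions ran from 41.2% (Egf) to 99.8% (Egfr), with 93.0% for Nrg1 and 95.5% for Hbegf.

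**Figure D1:**
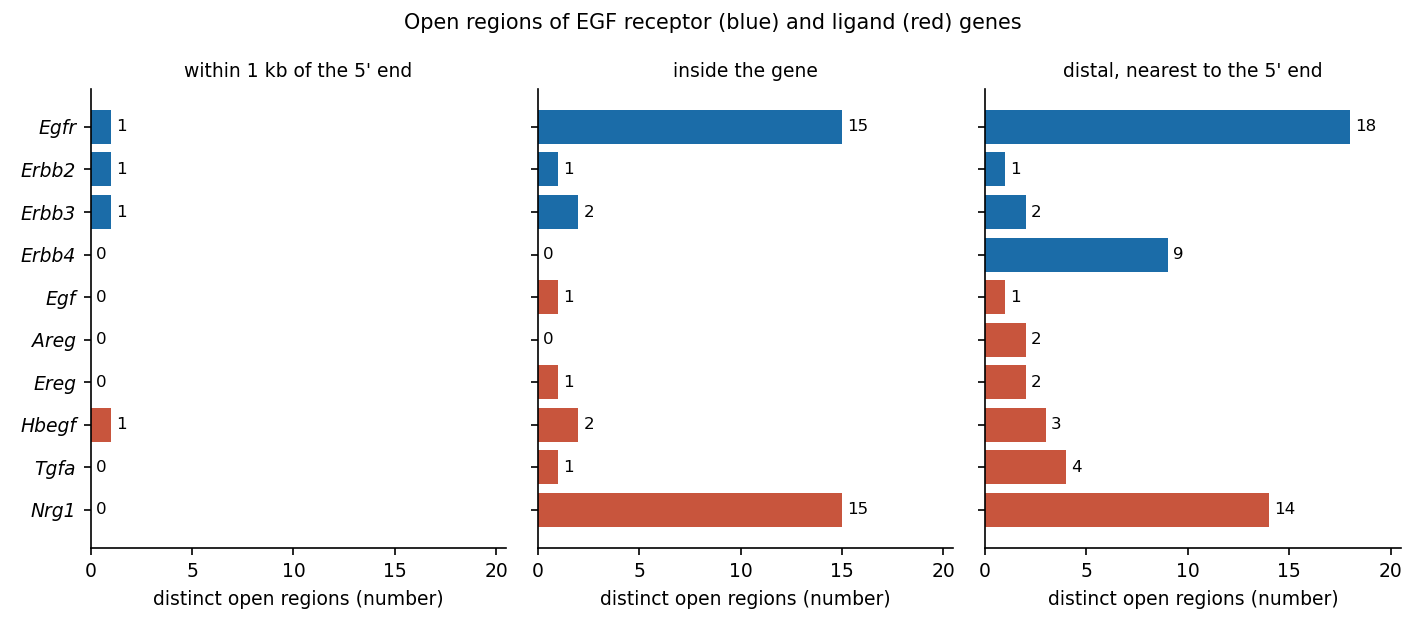
Number of distinct open regions of each gene (x axis) within 1 kb of the 5′ end, inside the gene, and distal but nearest to the gene's 5′ end, for receptors (blue bars) and ligands (red bars). Egfr and Nrg1 hold 15 regions each inside the gene, whereas Erbb4 and Areg hold 0.

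The 4 open 5′ ends were modest in strength. At Egfr, the receptor of most EGF family ligands, the region was 890 bp wide with 5 summits (chr11:16752036-16752925), and its strongest summit lay 4 bp upstream of the start of the gene with a fold of 5.37. The region at Erbb2 was 323 bp wide (chr11:98412283-98412605), with a fold of 6.30 at a summit 135 bp upstream. Erbb3, a receptor with little kinase activity of its own, had a region of 731 bp (chr10:128589414-128590144) and a fold of 5.42 at 30 bp upstream. All 3 folds, and the 5.45 of Hbegf described below, were under the median of 7.90 over all regions at protein-coding 5′ ends, whose quartiles were 6.05 and 10.6. These are folds of the strongest summit. The median over the summits of each region was 3.10 for Egfr, 6.07 for Erbb2, 4.68 for Erbb3 and 4.17 for Hbegf. The IDR scores were 629, 818, 822 and 629 for Egfr, Erbb2, Erbb3 and Hbegf, none at the ceiling of 1000 that 57.2% of regions at 5′ ends reached. Accordingly, none of the 10 genes kept an open 5′ end when only the 14422 regions with a score of 1000 were used, a rule under which 24.0% of all protein-coding genes had one, or when the list was limited to the 16006 regions of lowest q-value (25.9% of all). None of the 4 regions was shared with another protein-coding gene, the nearest of which started 11.3 kb away (Pgap3, beside Erbb2). Non-coding genes were left out of this, and 1 of them, Gm41698, starts within 1 kb of the Hbegf region as well.

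Promoter sequence was available from RefSeq (GRCm38.p6) for 6 of the 10 genes, as windows from 250 bases before to 50 bases after each listed start. Entries were missing for Erbb3, Ereg, Hbegf and Nrg1. Over 21262 such windows of protein-coding genes, the share with an open region within 1 kb of the start was 5.19% at 0 to 4 CpG dinucleotides, 31.5% at 5 to 14, 66.1% at 15 to 24 and 66.1% at 25 or more. By this measure the closed promoters of the family were not alike. Areg held 21 CpG, Tgfa 24 and Erbb4 17, numbers at which most promoters in the list were open, and their own nearest regions were 29.2, 14.5 and 57.4 kb from the start. Egfr and Erbb2, both open, held 15 and 21. The outermost start of Egf held 0.

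The 2 open receptor promoters and 1 closed ligand promoter are shown so that their composition can be compared. Each is printed 5′ to 3′ on the strand of the gene, and capitals mark matches on either strand to the letters searched. These were the TATA box (TATAAA), the letters bound by NF-Y factors (CCAAT), those bound by SP and KLF factors (GGGCGG), the AP-1 letters (TGACTCA), the cAMP response element (TGACGTCA), the core bound by TEAD factors (GGAATG), and the letters bound by AP-2 factors (GCCNNNGGC). The middle of the NRF1 motif (CGCATGCG) was added after the sequences had been seen.
Egfr, chr11:16751953-16752252, + strand: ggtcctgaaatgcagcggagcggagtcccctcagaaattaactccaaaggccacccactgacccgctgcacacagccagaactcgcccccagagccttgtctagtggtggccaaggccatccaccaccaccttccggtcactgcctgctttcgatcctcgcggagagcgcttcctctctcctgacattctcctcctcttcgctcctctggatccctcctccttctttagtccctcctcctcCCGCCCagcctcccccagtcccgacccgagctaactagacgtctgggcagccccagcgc
Erbb2, chr11:98412234-98412533, + strand: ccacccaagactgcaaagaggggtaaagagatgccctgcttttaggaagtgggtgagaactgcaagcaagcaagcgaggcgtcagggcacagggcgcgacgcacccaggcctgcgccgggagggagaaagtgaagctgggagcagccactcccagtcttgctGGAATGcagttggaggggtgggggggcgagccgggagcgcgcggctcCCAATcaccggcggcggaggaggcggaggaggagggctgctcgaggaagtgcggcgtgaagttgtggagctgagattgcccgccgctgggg
Areg, chr5:91139349-91139648, + strand: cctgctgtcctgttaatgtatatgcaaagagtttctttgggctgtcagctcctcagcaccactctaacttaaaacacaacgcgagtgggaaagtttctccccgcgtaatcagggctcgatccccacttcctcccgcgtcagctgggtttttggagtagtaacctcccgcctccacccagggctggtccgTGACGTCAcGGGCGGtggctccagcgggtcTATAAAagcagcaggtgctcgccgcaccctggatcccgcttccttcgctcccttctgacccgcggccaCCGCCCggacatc
The Egfr window had neither TATA box nor NF-Y letters, and its only match was GGGCGG on the minus strand, 9 bases before the start, inside the open region. Erbb2 held CCAAT 41 bases and the TEAD letters GGAATG 88 bases before the start, both inside its open region. Areg, in contrast, held a TATAAA 31 bases before the start, GGGCGG 52 bases before it and, on the minus strand, 37 bases after it, and the full cAMP response letters TGACGTCA 61 bases before it, with no open region over any of them. Among all 21262 windows, the TATA box letters were present in 12.6%, those of NF-Y in 38.2%, those of SP and KLF factors in 46.2%, the cAMP response element in 2.23% and the TEAD letters in 13.6%. The AP-1 letters were present in 4.66% of all windows and in none of the 7 windows of these genes. The Tgfa window held GGGCGG and the AP-2 letters GCCNNNGGC at 2 places each (46.2% and 19.9% of all windows), and those of Erbb4 and of the outermost Egf start held no match. A match gives the letters alone and not a bound site.

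Among the receptors, Egfr had the most regions by far. There were 20 distinct regions, 15 inside its 162 kb and 5 upstream, and their folds ranged from 4.09 to 14.0 with 11 of 20 above the median of 7.11 over the whole list. Inside the gene this came to 9.28 regions per 100 kb, beside 1.60 over all protein-coding genes together. Of 1457 genes within 1.5 times its length, 99.7% held fewer regions, and their median was 1. Only 26 protein-coding genes (0.121%) held 15 or more. Egfr was the nearest gene to 18 distal regions, of which 13 are among those inside the gene and 5 lie upstream, a number that 36 protein-coding genes (0.168%) reached or passed, and of genes with a like stretch of sequence nearest to their 5′ end, 99.8% had fewer. Only 2 of the 18 remained nearest to Egfr when non-coding genes and pseudogenes could take a region too.

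The Egfr regions were gathered in the 5′ part of the gene. Of the 15 inside it, 12 lay closer to the 5′ than to the 3′ end, and 9 lay between 38 and 79 kb from the 5′ end. The highest fold at a summit was 14.0 at 78.3 kb (chr11:16830167-16830912, 746 bp, the 95.4th percentile of all regions), and the next was 12.8 at 48.6 kb (chr11:16800492-16801053). The former rested on 1 of 5 summits, whose median fold was 3.86, whereas the median over the 2 summits of the latter was 11.7, so the region at 48.6 kb was the strongest by that measure. Both had an IDR score of 1000, as did 7 others. The midpoint of the region at 78.3 kb lay 211 bp from the 5′ end of Egfros, a long non-coding RNA gene inside Egfr, and the weakest, with a fold of 4.09, lay 70 bp from that of another, Gm39584. Upstream, the highest fold was 10.3 at 35.3 kb, and the farthest region lay 91.7 kb away with a fold of 7.19. The median over the 3 summits of the region at 35.3 kb was 7.03, under the 7.69 of that at 68.4 kb. The genes of like length nearest to Egfr in their 3 counts were Runx1, with 0 regions at the 5′ end, 14 in the gene and 17 distal, Vgll4 with 1, 13 and 17, and Mbnl2 with 1, 14 and 15.

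Erbb4, a receptor for neuregulins, showed the opposite arrangement. Its 1080 kb held no open region at all, and none lay within 1 kb of its 5′ end. The same was true inside 25.2% of the 107 genes of like length, whose median was 3, and 16 of the 59 protein-coding genes of at least 1 Mb held none. It was nevertheless the nearest gene to 9 distal regions, all upstream, between 56.9 and 289 kb from the start. A number of 9 or more was reached by 402 protein-coding genes (1.88%), and 83.7% of genes with a like stretch of nearest sequence had fewer. The region at 120 kb upstream (chr1:69227893-69228259) had a fold of 17.2, the highest at any of the 10 genes and the 98.8th percentile of the list, and those at 289, 102 and 56.9 kb had folds of 13.0, 11.1 and 11.0, all with an IDR score of 1000. For the region at 120 kb the median over its 2 summits was 10.7, under the 13.0 of the region at 289 kb, which had 1 summit. The other 5 had folds of 4.58 to 7.19. Ikzf2, the next protein-coding gene by its 5′ end, started 579 kb from Erbb4, so being nearest here does not tie these regions to Erbb4.

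Erbb2 and Erbb3, whose products often pair with each other, had few regions. Erbb2 had 1 besides that at the 5′ end, at 6.73 kb within the gene with a fold of 4.94 (chr11:98418940-98419486), and both were under the median of the list. Of 4740 genes of like length, 53.5% held none inside and 32.5% held 1. Erbb3 had 2 inside its 22.1 kb, at 5.11 kb with a fold of 8.55 (chr10:128584300-128584747) and at 5.75 kb with a fold of 5.52. The former had the higher IDR score too, at 1000 against 950. By the median over its 2 summits, however, its fold was 5.22, under the 5.52 of the latter, which had 1 summit. The midpoint of the former lay 26 bp from the 5′ end of the microRNA gene Mir6917. Of 4858 genes of like length, 87.8% held fewer than 2 inside and 9.24% held 2.

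**Figure D2:**
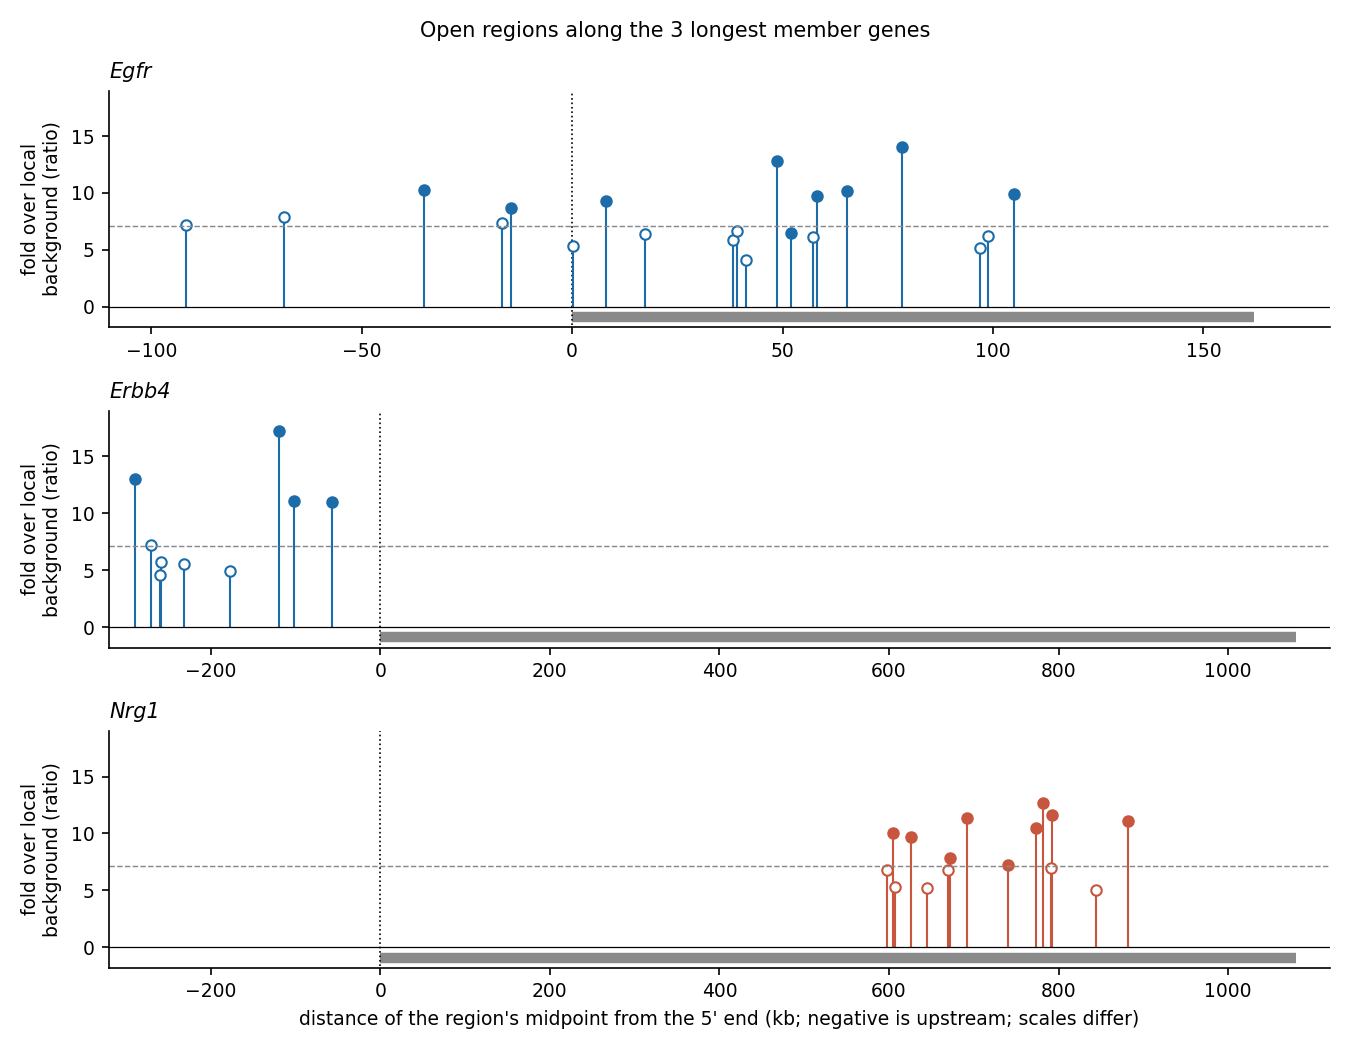
Open regions along Egfr, Erbb4 and Nrg1 by distance of the region's midpoint from the 5′ end in kb (x axis) and fold over local background (y axis), with filled points for an IDR score of 1000, a grey bar for the gene and a dashed line at the median fold of all regions, 7.11. Egfr regions flank and fill the 5′ part of the gene, all 9 Erbb4 regions are upstream of an empty gene, and all 15 Nrg1 regions lie from 598 kb onward.

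Nrg1, which encodes the neuregulins that bind ERBB3 and ERBB4, had the same number of regions inside the gene as Egfr, 15, but over 1080 kb. None lay at or near its outermost 5′ end. The first was 598 kb into the gene, after 55.2% of its length, and all 15 fell within 284 kb, closer to the 3′ than to the 5′ end. Of 106 genes of like length, 95.3% held fewer than 15, and their median was 2.5. Folds ranged from 5.07 to 12.7, with 9 of 15 above the median of all regions and 9 with an IDR score of 1000. The strongest lay at 782 kb (chr8:32108989-32109469), and regions with folds of 11.6, 11.4 and 11.1 lay at 792, 692 and 882 kb, the last with a median of 5.07 over its 3 summits. The gene has several known starts far apart, and the table used here placed only the outermost, so a count of 0 at the 5′ end refers to that start alone. Erbb4 and Nrg1, receptor and ligand of nearly the same length, thus differed by 0 against 15 regions inside the gene. Of the genes of like length, Rbms3 (0, 17 and 16 at the 5′ end, in the gene and distal) and Robo2 (0, 12 and 15) had the counts nearest to the 0, 15 and 14 of Nrg1.

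Egf, the founding ligand of the family, had 1 region. Its outermost start had none, and the region lay 29.9 kb inside the gene (chr3:129725274-129725536, 263 bp), with a fold of 12.0, the 90th percentile of the list, and an IDR score of 1000. RefSeq lists a second Egf start 30.2 kb inside the gene, and the midpoint of the region lay 319 bp upstream of it, with 63 bp of the region inside its promoter window. Counting this start, 2 of 6 ligands and 5 of the 10 genes had an open start. No start was listed for Erbb3, Ereg, Hbegf and Nrg1, so only their outermost 5′ end could count. The share of all genes with any listed start open was not computed. Of all 21262 listed starts, taken singly and not by gene, 40.2% were open, which is a different unit. Both Egf windows are printed because they differ in composition, with 0 CpG and 49.0% G and C at the outermost start against 17 CpG and 52.3% at the inner one.
Egf, outermost start, chr3:129755273-129755572, − strand: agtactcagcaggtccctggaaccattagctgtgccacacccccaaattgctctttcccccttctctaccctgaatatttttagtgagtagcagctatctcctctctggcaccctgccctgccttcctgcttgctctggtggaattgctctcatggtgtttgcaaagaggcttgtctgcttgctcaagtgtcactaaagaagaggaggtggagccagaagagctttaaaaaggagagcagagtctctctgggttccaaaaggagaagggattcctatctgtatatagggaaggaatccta
Egf, inner start, chr3:129725037-129725336, − strand: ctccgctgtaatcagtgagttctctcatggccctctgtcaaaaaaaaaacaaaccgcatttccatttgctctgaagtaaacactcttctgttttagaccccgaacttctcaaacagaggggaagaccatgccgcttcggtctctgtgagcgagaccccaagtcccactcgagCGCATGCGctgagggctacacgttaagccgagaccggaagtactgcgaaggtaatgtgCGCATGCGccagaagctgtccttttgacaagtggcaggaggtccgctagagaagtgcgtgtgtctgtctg
In the inner window the NRF1 letters CGCATGCG were found 78 and 20 bases before the start, outside the open region, and 2.52% of all windows held them. No RNA was measured in these samples, so whether either start was in use is not known from these data.

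Tgfa, the ligand of EGFR first known from transformed cells, had 4 regions and a closed 5′ end. There were 3 upstream, at 14.3, 25.7 and 37.6 kb with folds of 8.08, 5.56 and 6.87, and 1 inside the gene at 24.6 kb (chr6:86219402-86219918) with a fold of 8.63. The IDR score was 1000 for the region at 14.3 kb only. That region also had the highest median over its summits, 7.27, against 6.17 for the region inside the gene. The count of 1 inside the gene was ordinary for its 80.7 kb, as was that of Egf for 77.7 kb, since 34.5% and 35.3% of genes of like length held fewer.

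Areg and Ereg, neighbours on chromosome 5 that encode amphiregulin and epiregulin, both had closed 5′ ends. Areg, a gene of 8.83 kb, held no region, as did 70.7% of 3747 genes of like length. The region nearest to Areg lay 29.2 kb upstream (chr5:91110063-91110652) with a fold of 6.68. A second was placed 102 kb downstream with a fold of 5.23. Ereg had 1 region inside, at 8.63 kb with a fold of 7.03, and 1 beyond its 3′ end at 29.9 kb with a fold of 9.16 (chr5:91104295-91104700) and an IDR score of 1000. The median over the 2 summits of the latter was 6.38, under the 7.03 of the former, which had 1 summit. Of 4805 genes of like length, 57.8% held none inside and 31.7% held 1. Areg and Ereg lie in a run of 4 ligand genes, Epgn, Ereg, Areg and Btc, that spans 375 kb and held 10 open regions. Only 2 of the 10 were at a 5′ end, both at Btc, which encodes betacellulin, with folds of 5.67 and 5.86. The strongest of the run, with folds of 13.4 (chr5:91282882-91283382) and 12.5 (chr5:91274436-91274887), lay between Areg and Btc, 120 and 128 kb from the start of Btc, and a region of fold 12.5 lay 11.2 kb from the start of Epgn. Strong open regions in the run were therefore away from the starts of Areg and Ereg, which are themselves 65.0 kb apart.

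Hbegf, the precursor of heparin-binding EGF-like growth factor, was the ligand with the densest set of regions for its length. It had 4 regions around a gene of 10.9 kb, and the 2 inside it came to 18.4 per 100 kb. The region at the 5′ end (chr18:36515588-36516140) was 553 bp wide with a fold of 5.45 at a summit 113 bp upstream. Within the gene, regions at 1.51 and 1.77 kb had folds of 3.84 and 7.46, and the last, 23.0 kb from the 5′ end and beyond the 3′ end of the gene, had the highest fold, 9.90 (the 79.1st percentile). The median over the 3 summits of the last was 7.25, under the 7.46 of the region at 1.77 kb, which had 1 summit. Of 4093 genes of like length, 94.5% held fewer than the 2 regions inside Hbegf. The region at 1.51 kb was 148 bp wide, with its midpoint 899 bp from the 5′ end of the long non-coding RNA gene Gm41698. That end lies between this region and the one at the Hbegf 5′ end, and within 1 kb of the latter too. The start nearest to the latter was that of Hbegf, at 59 bp. The 2 regions inside the gene lay side by side (chr18:36513893-36514176 and chr18:36514221-36514368), so the count of 2 and its rate depend on their being listed apart. With only the regions of lowest q-value, or only those with an IDR score of 1000, 1 of the 2 remained. The 3 counts of Hbegf were matched exactly by 3 genes of like length, Nfe2l1, Nr1d1 and Scd2. The fold of 3.84 was the lowest at any of the 10 genes, at the 1.4th percentile of the list.

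**Figure D3:**
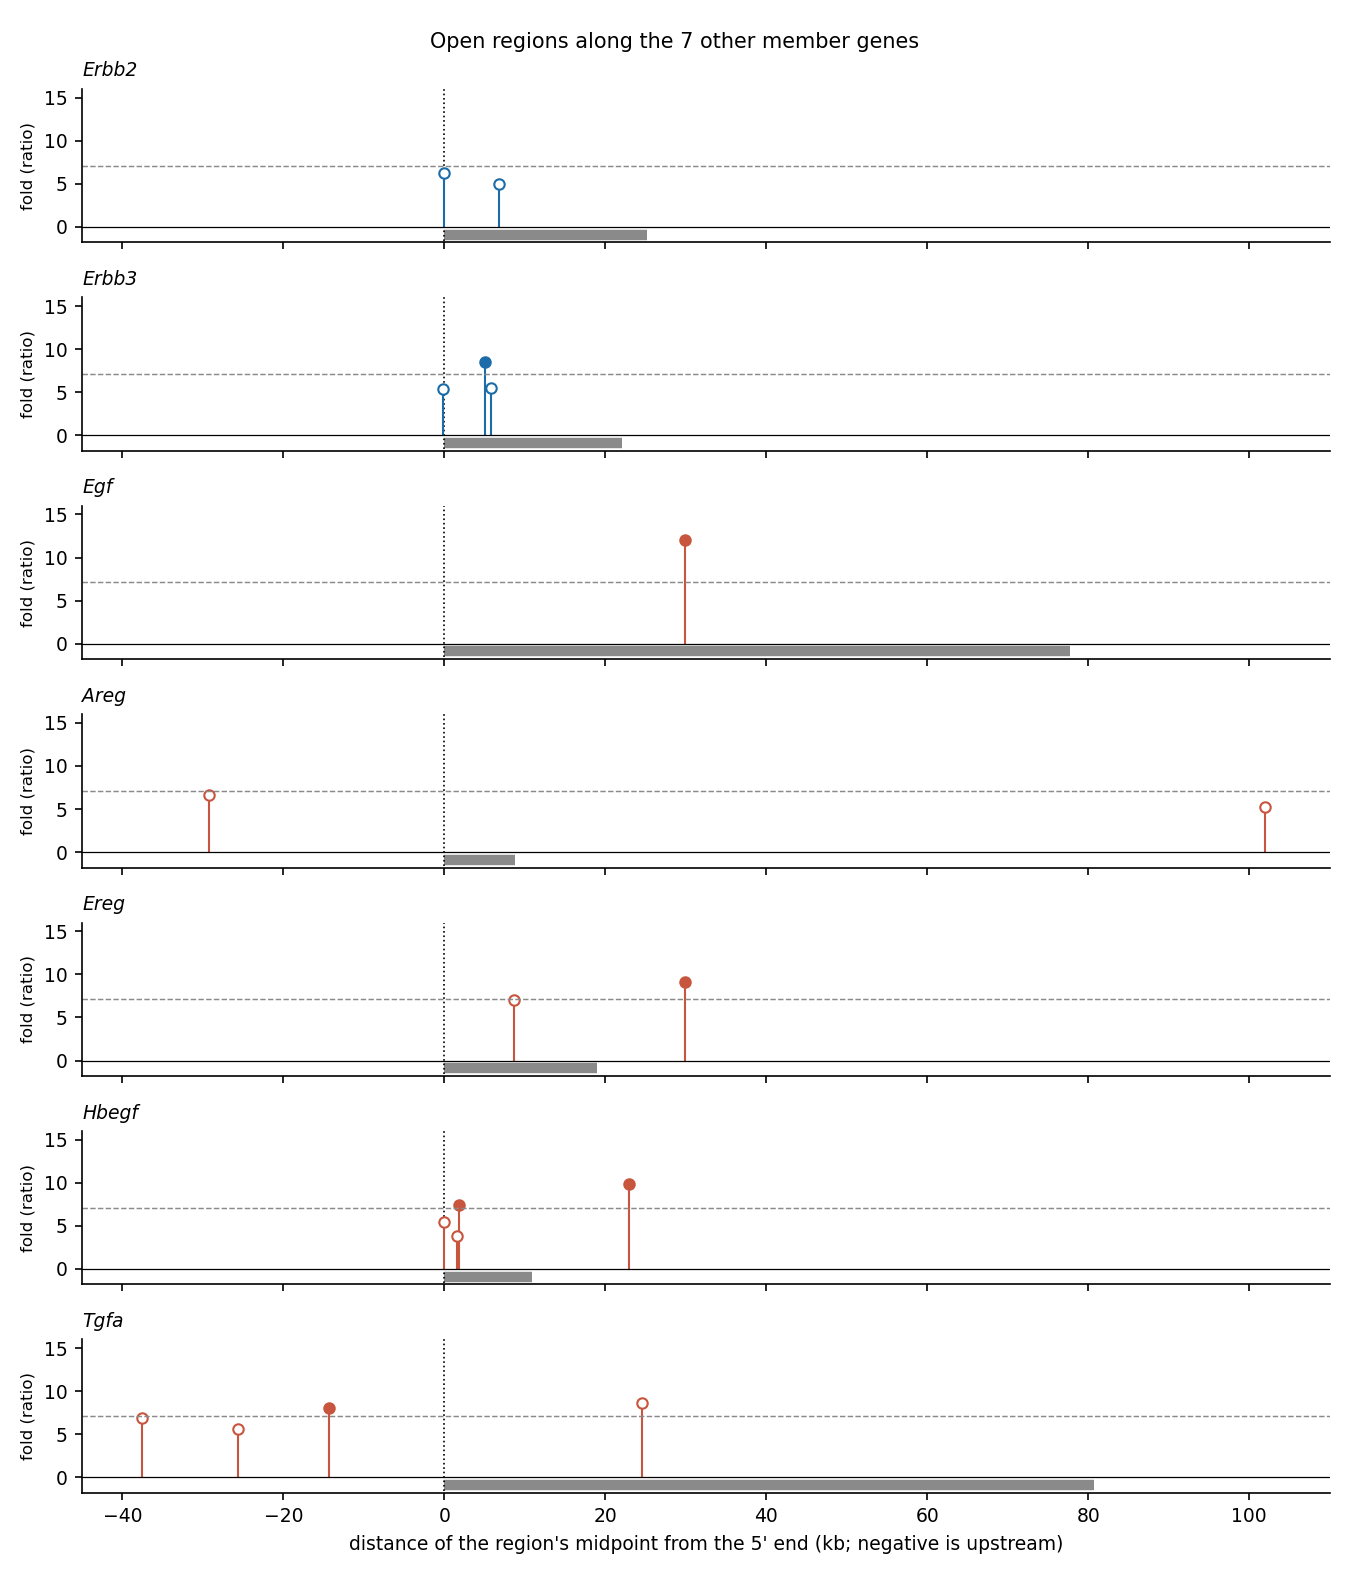
Open regions along the 7 shorter genes by distance of the region's midpoint from the 5′ end in kb (x axis) and fold over local background (y axis), drawn with the same symbols on a common scale. Regions stand at the dotted line of the 5′ end in Erbb2, Erbb3 and Hbegf only, and the single Egf region stands at 29.9 kb.

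Set side by side, receptors and ligands differed in the 5′ end count but little in pooled density inside the genes, median fold and IDR score. The 4 receptors held 18 regions inside 1290 kb of gene and the 6 ligands 20 inside 1280 kb, which is 1.40 and 1.57 per 100 kb, beside 1.60 over all protein-coding genes. Of these, 15 and 15 came from Egfr and Nrg1 alone. Erbb4, with 0 inside, and Nrg1 made up 1080 kb each of the 2 lengths, so the pooled rates rest largely on them. By gene, the rate ranged from 0 to 9.28 per 100 kb among receptors and from 0 to 18.4 among ligands. Distal regions numbered 30 for the 4 receptors and 26 for the 6 ligands. Over distinct regions, the median fold was 6.92 for the 34 of the receptors and 7.33 for the 28 of the ligands, both close to 7.11 for the whole list. An IDR score of 1000 was held by 41.2% and 50.0% of them, against 45.1% of all regions. With 4 and 6 genes and no replicate values, no statement on a difference between the roles can be made beyond these counts. Assignment to the nearest protein-coding gene also mattered: when non-coding genes and pseudogenes could take a region too, the distal regions nearest to these 10 genes went from 56 to 7, with 2 left for Egfr, 1 each for Erbb2 and Areg, 3 for Tgfa and none for the others.

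**Figure D4:**
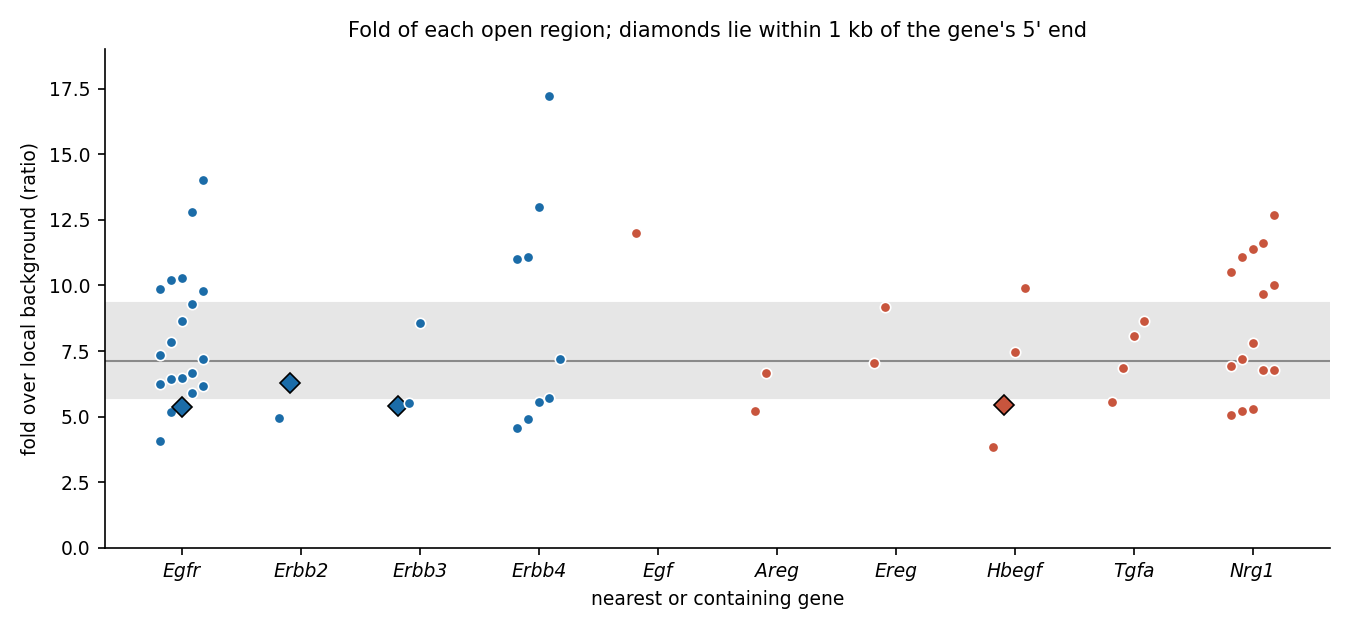
Fold over local background (y axis) of each of the 62 open regions by gene (x axis), with diamonds for regions within 1 kb of the 5′ end, a grey band for the quartiles of all 32011 regions (5.70 and 9.32) and a line for their median. The 4 diamonds lie between 5.37 and 6.30, under the median, while the highest point, 17.2, belongs to Erbb4.

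Other genes of the pathway were read from lists by role. Of the ligands outside the 10, only Btc had an open 5′ end, 1 of 5, and Epgn, Nrg2, Nrg3 and Nrg4 had none. The genes that release ligands were mostly open, with 3 of 4, among them the proteases Adam10 (fold 10.8) and Adam17 (11.4), which cut the ligand precursors. Adaptors and effectors had an open 5′ end in 11 of 13, from Grb2 (6.21) and Shc1 (8.76) to Hras (9.27) and Map2k1 (10.7), and Braf and Mapk3 were the exceptions. Among early target genes it was 6 of 7, with Etv5 at a fold of 12.0. Myc, the exception, was nearest to 31 distal regions. In all, 27 of 39 pathway genes (69.2%) had an open 5′ end, beside the 38.3% of protein-coding genes.

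Genes that restrain the receptors showed both kinds of regions. Of 10 feedback and degradation genes, 6 had an open 5′ end, beside 38.3% of all protein-coding genes. All 10 were nearest to at least 1 distal region (40.4% of all), with a median of 8 beside 0 over all protein-coding genes. Lrig1, a membrane protein that promotes degradation of the receptors, had a fold of 12.8 at the 5′ end and 13 distal regions. Cblb, a ubiquitin ligase, had 13, Spry2, an inhibitor of RAS/MAPK signaling, had 12, and Dusp6, a phosphatase of ERK, had 10. Errfi1, which binds and inhibits the EGFR kinase, had no region at the 5′ end and 7 distal ones. Egfr, with 18, had more distal regions than any of these 10. The distal counts of these 10 genes and of Myc were not set beside genes with a like stretch of nearest sequence. Only protein-coding genes could take a region in these counts. With genes of any type, Egfr kept 2 of its 18, and this was not examined for Myc and the 10 genes.

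**Figure D5:**
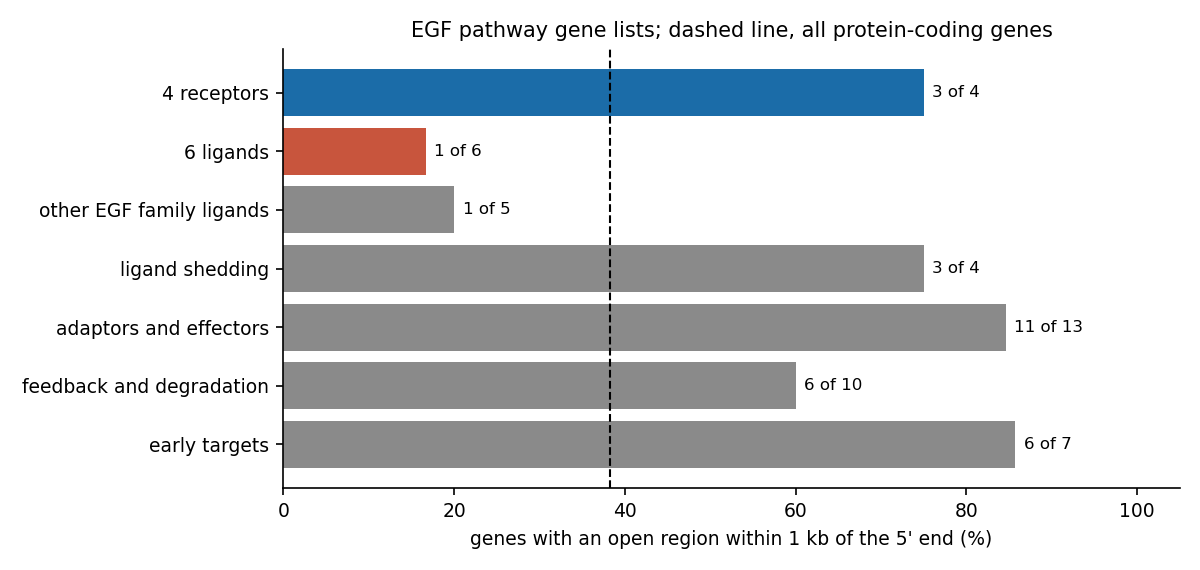
Share of genes with an open region within 1 kb of the 5′ end (x axis, %) for the 4 receptors, the 6 ligands and the pathway lists, with counts at the bars and a dashed line at the 38.3% of all protein-coding genes. The 2 ligand lists, 1 of 6 and 1 of 5, are the only bars under the line.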

How the data were processed

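Bulk ATAC-seq libraries of 4 organoid samples were sequenced. Alignment and peak calling by the authors used the ENCODE pipeline for ATAC-seq, whose version and filters are not given in the sources used here. The authors deposited 1 list, taken to be their consensus of all organoid samples. Neither its number of lines nor of distinct regions matches that consensus. For each line it gives an IDR score, the fold (ratio) of signal to local background, and −log10 values of p and q, all from the authors' peak caller, of which the p-value was not used. Depth by sample is unknown.

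The submitters' processing notes name GRCm39 and HOMER. The 69545 lines were read as GRCm38, since a region lay within 1 kb of 38.3% of 21436 protein-coding 5′ ends of GRCm38.p6, of 3.77% of the same ends shifted by 50 kb and of 5.04% of GRCm39 ends. Lines with equal start and end were joined into 1 region with the values of its strongest summit. Gene spans came from a RefSeq table of GRCm38.p6, from which no gene coordinate is printed. Strand came from the RefSeq promoter table for 17491 genes and, by name, from GENCODE mouse release 39 for 3945 (447 had none and were left out). In 15307 genes with both, 99.4% had the same strand. Distances were taken from a gene's outermost 5′ end, and like length meant within 1.5 times.

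Members (by family name), gene lists and letters searched were chosen with earlier results of these data known, and no test was run. Named were all 10 genes, with the region at the 5′ end, the strongest inside and the strongest distal, genes of the lists, the nearest neighbours, and the genes of like length with the most similar counts. Non-coding genes and further regions were named after their values were seen. Counting was tested on simulated data. Alternatives were the distance, summit or midpoint, stricter lists, strand, the genes that may take a region, and summit folds. Analyses used Python 3.11.15, numpy 2.4.6, pandas 2.3.3 and matplotlib 3.10.9.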

Additional observations from a re-analysis of the deposited data

How the results depend on the processing

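The open 5′ ends rested on the weaker part of the list. With the 16006 regions of lowest q-value (−log10 of at least 26.4), or with the 14422 regions that had an IDR score of 1000, the number of genes with an open 5′ end went from 4 to 0, from 3 to 0 among receptors and from 1 to 0 among ligands, because the 4 regions are left out by construction. It stayed at 4, 3 and 1 with limits of 500 bp and 2 kb, with summits in place of midpoints and with either end of the gene. Counting every start listed by RefSeq, an alternative chosen after seeing the data, gave 2 ligands and 5 genes. It could add no start for Erbb3, Ereg, Hbegf and Nrg1, which had no listed start. Regions inside the genes went from 38 to 21 (lowest q-values), 19 (IDR score of 1000) and 78 (every line counted), and distal regions from 56 to 30, 26 and 117. Distal regions fell to 7 with genes of any type, because non-coding genes then took them. The median over genes of the strongest fold was 9.53, and 7.37 with the median over a region's summits. Of 31 alternative values, 17 stayed within 1.5 times the reported one. Samples were not left out in turn, since the list is pooled. No paired analysis was possible because the list is pooled over samples. Depth is unknown, so a gene with no listed region is not shown to be closed in every cell.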
